A study of Mus musculus with 9 samples.

Results

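A set of 9 secreted-protein genes of the liver are described here across 9 RNA sequencing libraries of mouse liver. They are Fgf21, Gdf15, Inhbe, Inhba, Angptl4, Angptl6, Angptl8, Lect2 and Fetub, and they were taken from the deposited expression table by gene symbol. All 9 were found among 31964 gene IDs, and all 9 were among the 11086 genes expressed highly enough to be tested. There were 3 libraries in each of 3 groups: C, with replicates numbered 2, 3 and 4, A-C, with 6, 9 and 12, and M, with 24, 26 and 27. The study used the NIAAA mouse model, which feeds alcohol in a liquid diet, and magnesium isoglycyrrhizinate, a drug related to a compound of liquorice, was given to some animals and not to others. No label ties a letter to a diet or drug, or gives a dose, a time, an age or a sex, and groups are therefore compared under their letters. The strain is labelled C57BL6J in 8 libraries and C57BL7J in C replicate 4. Whether each sample was a separate animal is not stated, and the p-values reflect the spread among these samples alone, which may be technical. No batch is named, and group and handling cannot be told apart.

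Hepatokines are proteins that the liver releases into the blood and that act on metabolism elsewhere. FGF21 is a hormone made on fasting and under cell stress, and it signals through FGF receptors bound to the co-receptor beta-klotho. GDF15 is a stress-induced cytokine that lowers appetite through the receptor GFRAL in the hindbrain. Inhbe and Inhba encode the beta E and beta A subunits of activins, which belong to the TGF-beta family, and Inhbe is made mainly in hepatocytes. ANGPTL4 and ANGPTL8 inhibit lipoprotein lipase, the enzyme that frees fatty acids from circulating triglyceride. Angptl6 encodes a related factor linked to energy use, Lect2 a chemotactic hepatokine, and Fetub the protease inhibitor fetuin-B. Fgf21, Gdf15 and Inhbe are known targets of the integrated stress response, Fgf21 and Angptl4 of the fatty acid receptor PPAR alpha, and Angptl8 of insulin and lipogenic signals.

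All 9 are protein-coding genes at the same mm10 positions in the deposited table and in GENCODE M21. Fgf21 (ENSMUSG00000030827) lies on chromosome 7 at 45613886 to 45615490, Gdf15 (ENSMUSG00000038508) on chromosome 8 at 70629393 to 70632456 and Inhbe (ENSMUSG00000047492) on chromosome 10 at 127348857 to 127354411, each on the minus strand. Angptl4 (ENSMUSG00000002289) lies on chromosome 17 at 33773750 to 33781830, Angptl6 (ENSMUSG00000038742) on chromosome 9 at 20873808 to 20879727 and Lect2 (ENSMUSG00000021539) on chromosome 13 at 56542464 to 56548502, also on the minus strand. On the plus strand are Inhba (ENSMUSG00000041324) on chromosome 13 at 16011851 to 16031621, Angptl8 (ENSMUSG00000047822) on chromosome 9 at 21835510 to 21837347 and Fetub (ENSMUSG00000022871) on chromosome 16 at 22918334 to 22939778. By mean level the members ran from Fetub and Lect2 at the top, through Angptl4, Angptl8 and Inhbe, to Fgf21, Angptl6, Gdf15 and Inhba at the low end.

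One short sequence is shown because it was found upstream of the 3 members with the largest SD of log2(TPM + 1) pooled within groups. That ranking did not hold in each group. Angptl8 had an SD of 0.19 in A-C, against 0.21 for the median gene. In C, Gdf15 (0.60) and Inhba (0.40) had the largest SD. A relation of the sequence to the spread was not tested. The RefSeq promoter table (build GRCm38.p6) matched 8 of the 9 members, all but Angptl4, in 10 windows of 250 bases upstream of an annotated start. TGATGNAA, the C/EBP-ATF response element, was searched on both strands and was found in 3 of those 10 windows. It was found in 1134 of all 32851 windows in the table (3.45%). Stretches of 30 bases around it on the plus strand, with the element in capitals, read as follows.
Fgf21 (chr7:45615611-45615640): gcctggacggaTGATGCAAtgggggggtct
Angptl8 (chr9:21835369-21835398): agccatcagtcTGATGCAAtggctgagcct
Inhbe (chr10:127352011-127352040): gtggacatgcaTGATGCAAgaaagaggatg
The element has the same 8 letters in each, 132 to 139 bases before the Fgf21 start, 123 to 130 before the Angptl8 start and 174 to 181 before the Inhbe start. It lies on the strand of the gene for Angptl8 and on the opposite strand for Fgf21 and Inhbe. The Inhbe window also falls in an exon of a longer Inhbe transcript in the GENCODE M21 annotation. The whole 250 bases upstream of Fgf21 (chr7:45615491-45615740, minus strand), with the same element in capitals as it reads along the gene, are shown for context.
Fgf21 upstream: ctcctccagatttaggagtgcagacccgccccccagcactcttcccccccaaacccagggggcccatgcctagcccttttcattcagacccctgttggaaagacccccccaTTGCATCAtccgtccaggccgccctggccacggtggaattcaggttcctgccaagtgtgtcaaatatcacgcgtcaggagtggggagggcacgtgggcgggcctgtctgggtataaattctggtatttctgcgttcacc
Of the other motifs searched, the E-box CACGTG was in a window of Fgf21 and of Gdf15, against 6.02% of all windows. The STAT element TTCNNNGAA (7.02% of all windows) and the PPAR element, a direct repeat searched in its canonical letters (0.0335%), were in none of the 10 windows. A match is a description of letters only, and binding was not measured.

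The deposited values were TPM, which divide reads by gene length and by the library's total. The reads recovered from them numbered 45597163 to 46631110 per C library, 52392521 to 65165613 per A-C library and 53879277 to 57046246 per M library. All levels are TPM after TMM scaling between libraries. Fold changes were computed on log2(TPM + 1), where changes of low genes come out too small, and a gene was called at a limma adjusted p under 0.05 over all 11086 genes. The cell type label reads hepatocyte and the tissue label liver. All 9 matched hepatocyte markers of 10 listed were above 1 TPM in every library, and so were all 10 sinusoidal endothelial and all 11 Kupffer cell markers. After TMM scaling, hepatocyte markers summed to between 147763 and 157975 TPM in C, between 86107 and 141691 in A-C and between 79645 and 96718 in M. As deposited, they took 12.8% to 14.3% of TPM in C and 8.96% to 14.2% in A-C, with overlap, and 8.51% to 10.4% in M. The sum rests mostly on Alb, Apoa1 and Ttr, and the markers did not move as one. Apoa1, Ttr and Serpina1c were lower in each A-C and M library than in each C library, while Alb in A-C replicate 6, at 84218 TPM, was above every C library. With TPM as deposited, Ttr in A-C replicate 6 and Serpina1c in M replicate 24 were above C replicate 2. Apob was higher in each A-C and M library than in each C library (446 to 532 TPM for C, 612 to 709.8 for A-C, 675 to 952.5 for M), as were Hnf4a in each M library and Ahsg in each A-C library. In bulk RNA, fewer cells of a type and less RNA per cell cannot be told apart. C replicate 2 stood apart in mitochondrial RNA, at 27.6% of TPM against 11.9% to 15.4% elsewhere. A set of 25 acute phase genes, which the liver raises in inflammation, took between 2.26% and 2.95% of TPM in C, against 3.69% to 21.7% for A-C and 4.58% to 16.2% for M. Of them, limma called 6 higher and none lower in A-C versus C, and 9 higher and none lower in M versus C. These counts moved with single libraries, from 3 (without C replicate 3 or A-C replicate 9) to 18 (without A-C replicate 6) in A-C versus C and from 2 (without C replicate 3 or M replicate 27) to 18 (without M replicate 24) in M versus C. With TPM as deposited they were 11 and 13. After TMM scaling and with all libraries, 16.9% of all tested genes were called in A-C versus C and 16.0% in M versus C, in either direction. A-C versus C and M versus C share the C libraries and are not independent.

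No member passed the test in any of the 3 comparisons. In A-C versus C, limma called 0 of 9 members against 16.9% of all tested genes, and 1 member had an unadjusted p under 0.05 (35.2% of all genes). In M versus A-C it called 0 of 9 against 0.171%, with 1 member under an unadjusted 0.05 (11.5%). In M versus C it called 0 of 9 against 16.0%, with 3 members under an unadjusted 0.05 (35.1%). Without overlap between the groups, Angptl8, Inhba and Fetub were lower in each A-C library than in each C library, which 18.4% of all genes also were. Lect2 and Fetub were lower in each M library than in each C library, against 17.9% of all genes. No member was higher without overlap in A-C versus C (22.8% of all genes) or in M versus C (23.7%). Between M and A-C, none was higher (7.69%) or lower (8.52%) without overlap. These separations were read after TMM scaling. With TPM as deposited, Angptl8 stayed separated in A-C versus C (29.9 to 35.4 against 52.7 to 72.6). The separations of Inhba, Fetub and Lect2 were then lost. Gdf15 was then higher in each M library (6.27 to 8.74) than in each C library (1.97 to 5.61). The median log2 difference of the 9 members was -0.05 in A-C versus C, -0.04 in M versus A-C and -0.35 in M versus C, beside 0.03, 0.02 and 0.05 over all tested genes. The scaling bears on these medians: with TPM as deposited, the median of all genes moved to 0.22 in A-C versus C and 0.27 in M versus C. The calls over all genes then split into 2385 higher and 404 lower in A-C versus C, against 1076 and 795 after TMM scaling. For M versus C the split was 2931 and 351, against 1032 and 745.

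**Figure D1:**
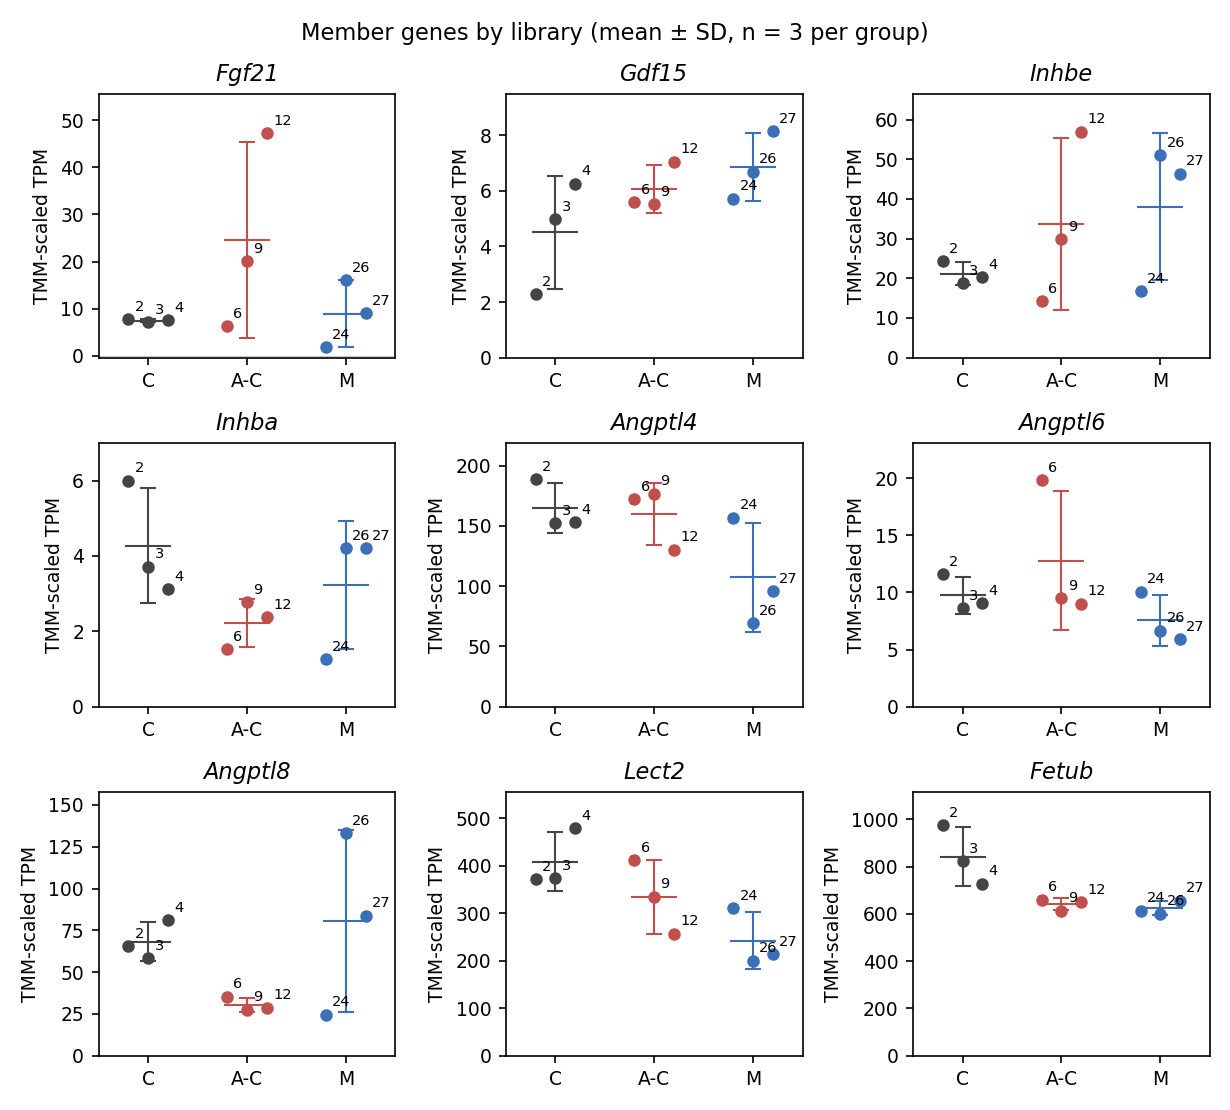
Level of each of the 9 genes in every library, in TMM-scaled TPM on linear axes, with 1 point per library labelled by its replicate number and the mean ± SD (n = 3) of groups C, A-C and M. Fgf21 lies between 7.08 and 7.81 in C and between 1.85 and 47.2 in the other libraries, and Angptl8 is below every C library in all 3 A-C libraries.

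Fgf21, the hormone gene, was even in C and uneven elsewhere. Its level in C was 7.81, 7.08 and 7.48 TPM in replicates 2, 3 and 4. In A-C it was 6.25, 20.0 and 47.2 TPM in replicates 6, 9 and 12. In M it was 1.85, 16.0 and 8.97 TPM in replicates 24, 26 and 27. Thus 1 A-C library was below all C libraries and the other two were above them, and M held both the lowest level of all and levels above C. The group means were 7.46 ± 0.361 TPM in C, 8.96 ± 7.10 in M and 24.5 ± 20.8 in A-C (SD, n = 3), and every pair of groups overlapped. The values rest on 138 to 148 recovered reads for C, 169 to 1040 for A-C and 44 to 396 for M. The log2 difference was 1.20 (SE 0.74, 95% interval -0.48 to 2.88) in A-C versus C, with a limma adjusted p of 0.278. It was -1.31 (SE 0.74, interval -2.99 to 0.37) in M versus A-C, at an adjusted p of 0.556. It was -0.11 in M versus C (adjusted p 0.933), and this turned to 0.13 with TPM as deposited and to 0.63 without M replicate 24.

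The C libraries differed in Fgf21 by less than most genes do, and the A-C and M libraries by far more. The SD of log2(TPM + 1) was 0.062 within C, which was larger than that of 11.7% of tested genes. It was 1.37 within A-C and 1.32 within M, against a median gene at 0.21 in A-C and 0.20 in M. The highest A-C library had 7.55 times the Fgf21 of the lowest, and the highest M library 8.68 times, against 1.10 times in C. Pooled within groups, the SD of Fgf21 was 1.10, above that of 99.4% of all tested genes.

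Gdf15, the other stress-induced member, was low throughout. In C it was 2.27, 4.98 and 6.25 TPM in replicates 2, 3 and 4. In A-C it was 5.58, 5.52 and 7.04 TPM, and in M 5.72, 6.68 and 8.15 TPM, in replicate order. C replicate 2, the library rich in mitochondrial RNA, was the lowest of all, and the other C libraries lay within or near the range of A-C and M. Means in ascending order were 4.50 ± 2.03 TPM for C, 6.05 ± 0.860 for A-C and 6.85 ± 1.22 for M, with overlap between neighbours. The log2 difference was 0.43 (SE 0.27) in A-C versus C at a limma adjusted p of 0.289, and 0.58 (interval -0.03 to 1.19) in M versus C at 0.163. Without C replicate 2 these were 0.091 and 0.24. The part of the mitochondrial share in this was not tested.

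Receptors of both hormones were looked for in the liver itself. Klb, which encodes beta-klotho, was at 4.45, 5.50 and 4.65 TPM in C, 9.63, 6.06 and 3.14 in group A-C and 7.80, 6.03 and 7.80 in group M. It was higher in each M library than in each C library, but its log2 difference of 0.48 had a limma adjusted p of 0.266. Fgfr4, the main FGF receptor of hepatocytes, stood at 16.7 ± 1.37 TPM in C, 15.8 ± 1.02 in group A-C and 16.3 ± 2.23 in group M, with log2 differences of -0.08 and -0.04 against C. Of all tested genes, 16.9% passed in A-C versus C and 16.0% in M versus C. Fgfr3, another FGF receptor, was the 1 of 8 tested genes of the receptor and processing list that passed. With TPM as deposited, 2 others passed as higher in A-C versus C, and 3 were higher and 1 lower in M versus C. It fell from 8.54 ± 1.59 TPM in C to 4.86 ± 0.301 in A-C (log2 -0.69, adjusted p 0.0258) and to 4.64 ± 0.963 in M (log2 -0.76, adjusted p 0.0222). The A-C call was lost with TPM as deposited (adjusted p 0.0578) and without C replicate 2 or 3 or A-C replicate 9 or 12 (up to 0.0982). The M call was lost without C replicate 2 or 3 or M replicate 26 or 27 (up to 0.0900). Gfral, the GDF15 receptor, and its signalling partner Ret had 0 reads in all 9 libraries, which allows up to 0.0723 and 0.0222 TPM in a library at 3 reads (counting error only).

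Inhbe, the hepatocyte activin subunit, also differed widely among the A-C and M libraries. In C it was 24.4, 18.8 and 20.3 TPM. In A-C it was 14.3, 29.8 and 56.9 TPM in replicates 6, 9 and 12, and in M 16.8, 51.1 and 46.4 TPM in replicates 24, 26 and 27. A-C replicate 6 and M replicate 24 were below every C library, and the other 4 A-C and M libraries were above every C library. With TPM as deposited, M replicate 24 (18.4) was above C replicates 3 (17.0) and 4 (18.2). Means were 21.2 ± 2.89 TPM in C, 33.7 ± 21.6 in group A-C and 38.1 ± 18.6 in group M, all overlapping, on 2052 to 7052 recovered reads. The log2 difference was 0.45 (SE 0.51) in A-C versus C at a limma adjusted p of 0.561, and it was -0.024 without A-C replicate 12. It was 0.68 (SE 0.51) in M versus C at an adjusted p of 0.369. The pooled within-group SD of 0.75 was above that of 97.1% of tested genes.

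Inhba was lower and moved differently. In C it was 6.0, 3.71 and 3.11 TPM. In A-C it was 1.52, 2.77 and 2.38 TPM, and in M 1.26, 4.20 and 4.21 TPM. Each A-C library was below each C library, and M replicate 24 was the lowest of all while the other M libraries lay within the C range. With TPM as deposited, A-C replicate 9 (3.02) was above C replicate 4 (2.79). The log2 difference was -0.69 (SE 0.34, interval -1.47 to 0.08) in A-C versus C, with a limma adjusted p of 0.184 and an exact two-sided permutation p of 0.1, the smallest that 3 against 3 allows. Without C replicate 2 it was -0.47. In M versus C it was -0.38 (adjusted p 0.451), and 0.020 without M replicate 24.

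Among the other activin genes, 14 of 18 listed were tested and the median change was 0.05 in A-C versus C and 0.10 in M versus C. With TPM as deposited, 4 and 5 of them were called higher, with medians of 0.21 and 0.33. Of all 11086 tested genes, 2385 and 2931 were then called higher. After TMM scaling, 16.9% of all tested genes were called in A-C versus C and 16.0% in M versus C. Inhbc, the second hepatocyte activin subunit gene, was at 55.4, 65.5 and 91.5 TPM in C, 56.9, 65.1 and 48.9 in group A-C and 58.2, 92.8 and 97.8 in group M, with overlap throughout and no call. The follistatin gene Fst, an activin antagonist, did not exceed 1.85 TPM in any library. Smad4, the shared signal transducer of the TGF-beta family, was the only gene of the list called in A-C versus C, and in M versus C it was called with the activin subunit gene Inhbb, whose call was lost without 7 of the libraries in turn (up to 0.157). Smad4 rose from 10.3 ± 1.24 TPM in C to 15.8 ± 1.17 in A-C (limma log2 0.58, adjusted p 0.0250) and to 18.4 ± 2.25 in M (log2 0.78, adjusted p 0.0126). The A-C call was lost without C replicate 2 or 3 or A-C replicate 9 or 12 (up to 0.0866), and the M call without C replicate 3 or M replicate 27 (up to 0.0600).

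Angptl8, the insulin-responsive lipase inhibitor gene, was even and low in A-C. In C it was 65.6, 58.4 and 80.9 TPM. In A-C it was 35.4, 27.5 and 28.7 TPM. In M it was 24.4, 133 and 83.8 TPM in replicates 24, 26 and 27. All A-C libraries were below all C libraries, whereas M held the lowest and the highest library of the 9. Means were 30.5 ± 4.25 TPM in A-C, 68.3 ± 11.5 in C and 80.5 ± 54.5 in M. C was 2.24 times A-C, a log2 difference of -1.13 (SE 0.50, interval -2.27 to 0.01) with a limma adjusted p of 0.145 and an exact two-sided permutation p of 0.1. The error comes from the spread in all 3 groups, and so includes M replicate 24, which belongs to neither group compared. Angptl8 passed in a fit to A-C and C alone (adjusted p 0.0158) and in the fit without M replicate 24 (0.0125). M versus A-C had a log2 difference of 1.08 (interval -0.06 to 2.22) and an adjusted p of 0.459. Without M replicate 24 the M versus A-C difference was 1.77 at an adjusted p of 0.0336. The M versus C log2 difference was -0.05 (adjusted p 0.951). It turned to 0.22 with TPM as deposited, to 0.073 without C replicate 4 and to 0.64 without M replicate 24.

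Angptl4, the fasting-induced lipase inhibitor gene, was the member of this family with the highest level. In C it was 189, 152 and 153 TPM, in A-C 172, 177 and 130 TPM, and in M 157, 69.2 and 95.7 TPM. M replicates 26 and 27 were below every other library, and M replicate 24 was within the range of C and A-C. Means were 107 ± 45.0 TPM in M, 159.7 ± 25.6 in A-C and 165 ± 20.8 in C. The log2 difference was -0.05 (SE 0.28) in A-C versus C, with a limma adjusted p of 0.917 and a sign that changed with TPM as deposited (0.18). In M versus C it was -0.69 (interval -1.31 to -0.06, adjusted p 0.112), and without M replicate 24 it passed at -1.0 (adjusted p 0.0175). In M versus A-C it was -0.64 (adjusted p 0.425).

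Angptl6 was lower than both. It was 11.6, 8.61 and 9.06 TPM in C, 19.8, 9.51 and 9.01 in group A-C and 10.1, 6.65 and 5.90 in group M. A-C replicate 6 was the highest and the other A-C libraries lay in the C range, so that the A-C versus C difference of 0.28 (limma adjusted p 0.520) was -0.058 without that library. The M versus C difference was -0.35 (adjusted p 0.415). Of the 1582 exon bases of Angptl6, 265 overlap A230050P20Rik on the other strand, and since the use of strand is not given, reads there could not be told apart.

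Of the lipoprotein lipase system, 12 of 13 listed genes were tested, with a median change of -0.21 in A-C versus C and -0.23 in M versus C (0.01 and 0.04 with TPM as deposited). In A-C versus C, 1 rose and 3 fell (Lpl, Apoc1 and Apoc3), and Apoc3 alone fell in M versus C. Of all tested genes, 16.9% were called in A-C versus C and 16.0% in M versus C. The A-C calls of Apoc1 and Apoc3 were lost with TPM as deposited and without C replicate 2 or 3 or A-C replicate 9, that of Apoc1 also without C replicate 4 and that of Apoc3 also without A-C replicate 12 (up to 0.0929 with a library left out). Gpihbp1, which anchors lipoprotein lipase to capillary walls, rose from 6.63 ± 0.878 TPM in C to 14.6 ± 0.782 in A-C (limma log2 1.04, adjusted p 0.00341), and the call held with each library left out (up to 0.0254). Endothelial markers, all 10 of 10 above 1 TPM, summed to 55.6 to 90.6 TPM for C, 157 to 165 for A-C and 79.8 to 115 for M. Clec4g was the largest part of that sum (16.2 to 23.9 TPM in C, 52.2 to 64.4 in A-C). Each marker but Stab1 was higher in each A-C library than in each C library. Stab1 overlapped, at 5.59 to 10.2 TPM in C and 7.37 to 8.42 in A-C. The part of these markers in the Gpihbp1 result was not tested. Lpl itself was low in liver, at 4.28 ± 0.888 TPM in C and 2.34 ± 0.169 in A-C (log2 -0.65, adjusted p 0.0227). That call was lost with TPM as deposited (0.0535) and without C replicate 3 or 4 or A-C replicate 9 or 12 (up to 0.0901). Apoc3, an apolipoprotein that slows triglyceride clearance, fell from 7719 ± 909 TPM in C to 3984 ± 373 in M (log2 -0.95, adjusted p 0.0148), lost without C replicate 3 or M replicate 26 or 27 (up to 0.0733).

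**Figure D2:**
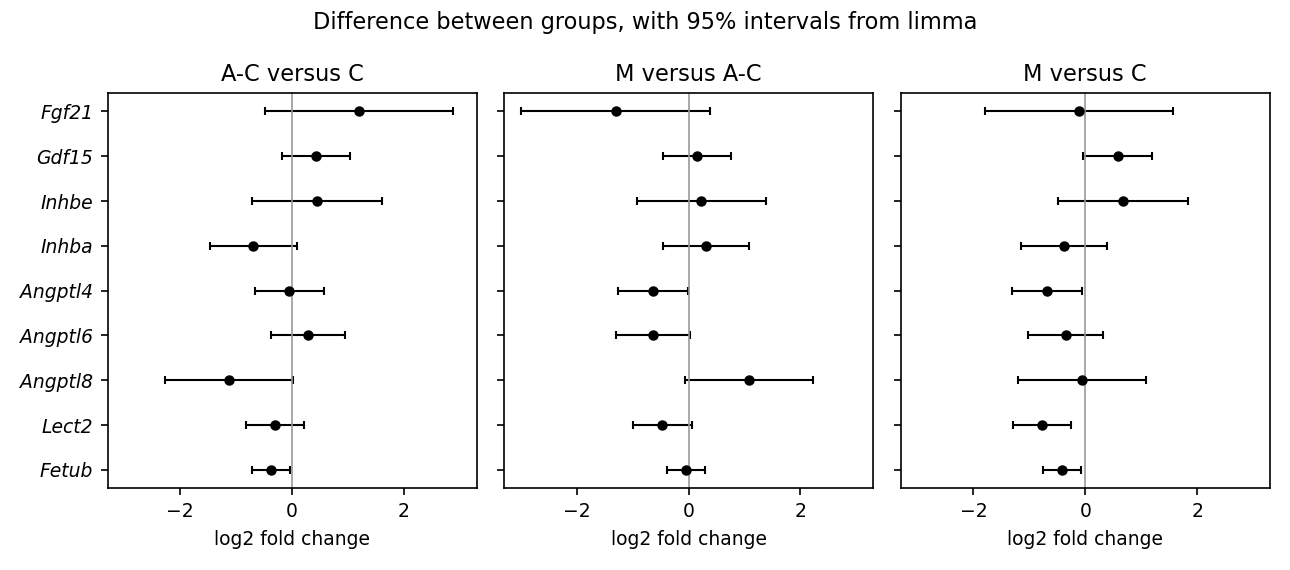
Log2 fold change of each of the 9 genes in the 3 comparisons, on the log2(TPM + 1) scale, with points for the limma estimate and bars for its 95% interval. Lect2 in M versus C, at -0.77 with an interval of -1.30 to -0.25, lies farthest from 0 relative to its interval, and no gene passed an adjusted p of 0.05.

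Lect2 and Fetub, the most abundant members, had their highest means in C. Lect2 was 372, 374 and 479.9 TPM in C. In A-C it was 412, 335 and 257 TPM in replicates 6, 9 and 12, and in M 310.5, 200.1 and 215 TPM in replicates 24, 26 and 27. Every M library was below every C library, and A-C overlapped with both. With TPM as deposited, M replicate 24 (341) was above C replicates 2 (323) and 3 (337). Means were 242 ± 60.0 TPM in M, 335 ± 77.8 in A-C and 409 ± 61.8 in C. The log2 difference was -0.77 (SE 0.23, interval -1.30 to -0.25) in M versus C, with a limma adjusted p of 0.0522 and an exact two-sided permutation p of 0.1. It was -0.30 in A-C versus C (adjusted p 0.378) and -0.47 in M versus A-C (0.486). The M versus C value lay at the threshold. It passed in a fit to M and C alone (0.0438), without the trend and robust settings (0.0468), without A-C replicate 6 (0.0426) or 12 (0.0321), and without M replicate 24 (0.0224). Under the other alternatives it did not pass, with adjusted p from 0.0524 (pseudocount 0.1) to 0.178 (without M replicate 27), among them TPM as deposited (-0.49, adjusted p 0.137).

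Fetub was 974, 822 and 728 TPM in C. In A-C it was 660.3, 613 and 649.6 TPM, and in M 613, 600.2 and 656 TPM. All 6 A-C and M libraries lay in a narrow band below the 3 C libraries. With TPM as deposited this did not hold. C replicate 4 (653) was then below every A-C library (661 to 676) and below M replicates 24 (673) and 27 (704). Means were 623 ± 29.4 TPM in M, 641 ± 24.9 in A-C and 841 ± 124 in C, and C was 1.31 times A-C and 1.35 times M. The log2 difference was -0.38 (SE 0.15, interval -0.72 to -0.04) in A-C versus C at a limma adjusted p of 0.106. It was -0.42 (SE 0.15, interval -0.76 to -0.08) in M versus C at an adjusted p of 0.0818. With TPM as deposited these were -0.15 and -0.14 (adjusted p 0.462 and 0.474), and without C replicate 2 they were -0.27 and -0.31. Of the hepatocyte markers given above, Apoa1, Ttr and Serpina1c were also lower in each A-C and M library than in each C library, whereas Apob was higher. With TPM as deposited, Ttr and Serpina1c were no longer below C in every A-C and M library. The part of these markers in the levels of Lect2 and Fetub was not tested. Fetub had the smallest pooled SD of the 9 members (0.13, above that of 16.5% of tested genes).

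Of the partners of LECT2 and the fetuins, 5 of 8 listed genes were tested, with a median change of 0.62 in A-C versus C and 0.12 in M versus C. Met, the hepatocyte growth factor receptor that LECT2 binds, Hgf, which encodes its ligand, and the endothelial receptor gene Tek were called higher in A-C, and Met and Hgf in M. Over all tested genes, limma called 16.9% in A-C versus C and 16.0% in M versus C. Tek is itself among the endothelial markers, whose sum was higher in each A-C library than in each C library as given above, and their part in its level was not tested. The Tek and Met calls in A-C were lost without 6 and 5 of the libraries in turn (up to 0.161 and 0.128), and the Hgf call in M without C replicate 3 or 4 or M replicate 26 or 27 (up to 0.0896). Met rose from 14.0 ± 1.56 TPM in C to 27.5 ± 4.13 in M (limma log2 0.93, adjusted p 0.0134), lost without M replicate 27 (0.0639). Hgf rose from 0.656 ± 0.202 TPM in C to 2.11 ± 0.505 in A-C (log2 0.90, adjusted p 0.0184), lost without C replicate 3 or A-C replicate 9 (up to 0.0754). Ahsg, which encodes fetuin-A, was at 8983 ± 1426 TPM in C, 11774 ± 1692 in group A-C and 7766 ± 481 in group M and was not called, so that fetuin-A had its highest mean in A-C where Fetub was below C.

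**Figure D3:**
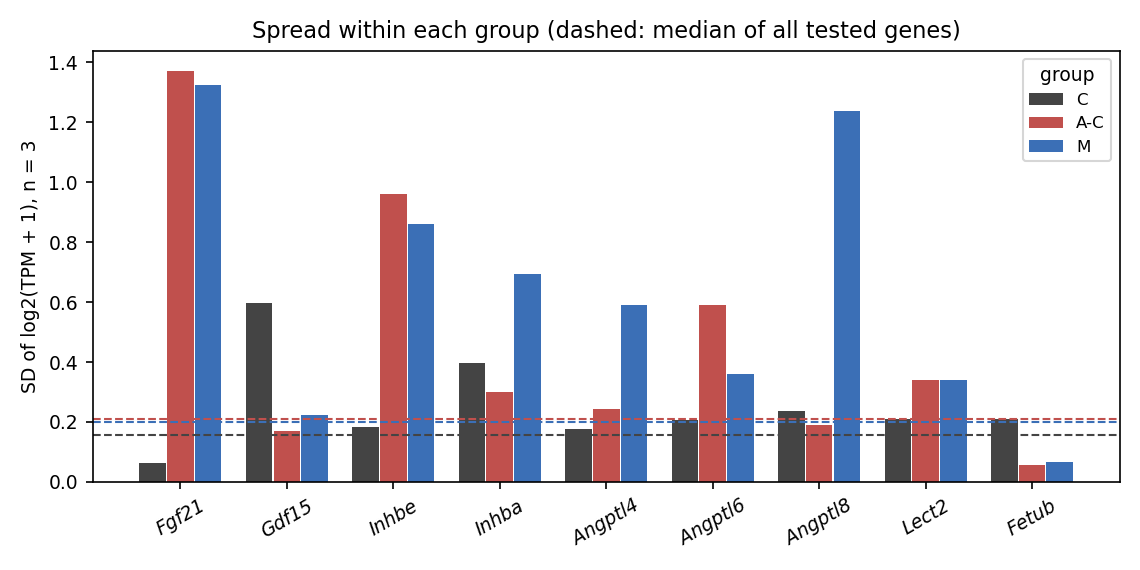
SD of log2(TPM + 1) among the 3 libraries of each group for each of the 9 genes, with dashed lines for the median SD of all tested genes in that group. Fgf21 stands at 0.062 in C and at 1.37 and 1.32 in A-C and M, and Fetub is below the median line in A-C and M.

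The order of the libraries within A-C and M was set beside their acute phase share for the members. In A-C the share was 3.69% of TPM in replicate 6, 8.76% in replicate 9 and 21.7% in replicate 12. In M it was 4.58% in replicate 24, 16.2% in replicate 26 and 12.2% in replicate 27. Within both groups, Fgf21 and Inhbe had the same order as the share, which 11.1% of all tested genes also had. Lect2 had the opposite order in both, as did 12.2% of all genes. Angptl8 had the order of the share in M and not in A-C, where it was highest in the library with the lowest share.

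Over the 6 A-C and M libraries, log2 levels of the 9 members were set beside the log2 share. The relation was chosen after the order within the groups had been seen in these same libraries, so r and rho are given as a description, with no p. Inhbe followed the share most closely of the 9, with the same order of all 6 libraries (217 of all tested genes, 1.96%, had that order). Its Pearson r was 0.99 and its Spearman rho was 1, and without the libraries farthest from the median share, A-C replicate 6 and M replicate 24, its r was 0.94. A total of 28 tested genes (0.253%) had an r at least as high. For Fgf21, r was 0.81, rho 0.77, and r 0.57 without those libraries. Of all tested genes, 14.8% had an r at least as high as that of Fgf21. For Lect2, r was -0.80, rho -0.77, and r -0.51 without those libraries. Of all tested genes, 14.0% had an r at least as low as that of Lect2. The other 6 members had r between -0.74 and 0.73. The C libraries were left out. All 3 had shares below those of A-C and M, yet their Inhbe and Fgf21 levels were above those of A-C replicate 6 and M replicate 24. With TPM as deposited, Inhbe in M replicate 24 was above C replicates 3 and 4. Neutrophil markers also varied within these groups, summing to 4.32 to 58.3 TPM in A-C and 5.06 to 63.2 in M against 1.44 to 7.18 in C, and their part was not tested.

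**Figure D4:**
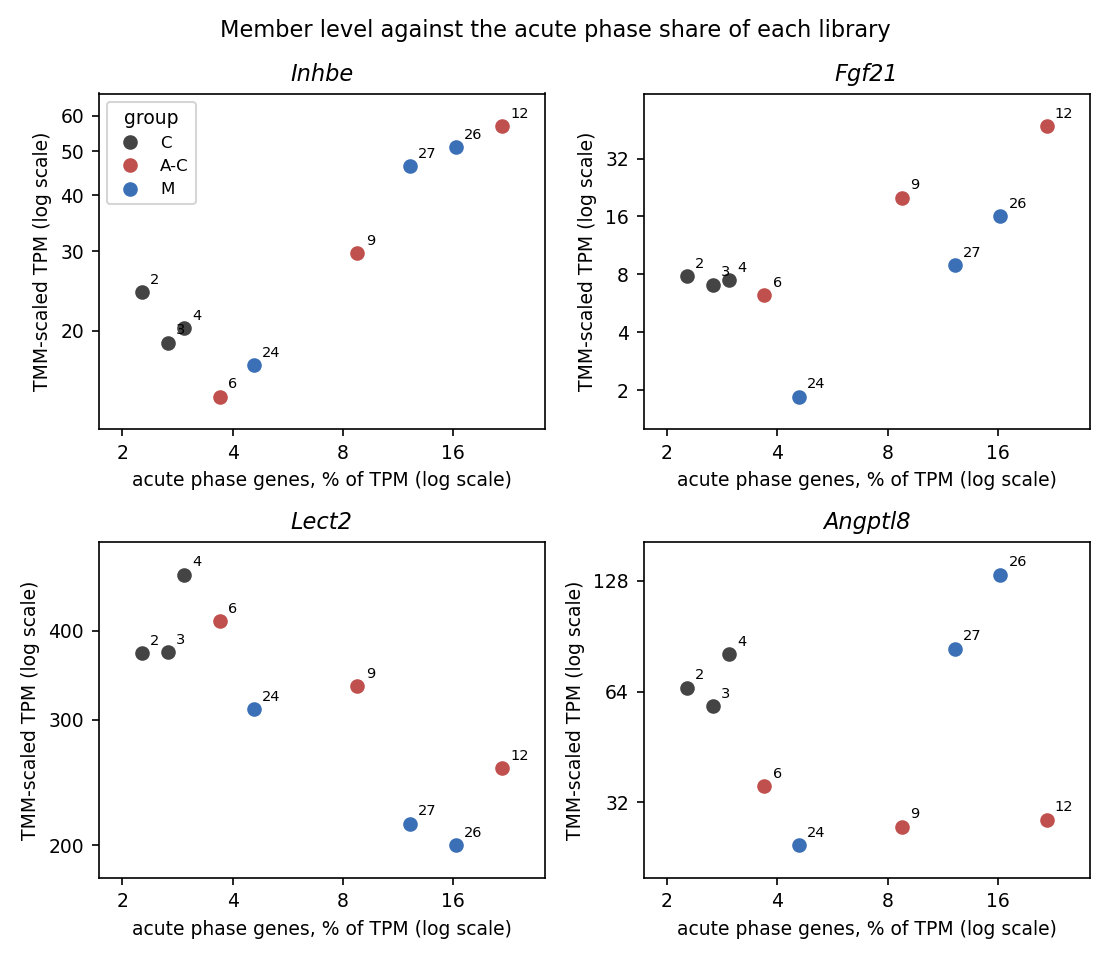
Level of Inhbe, Fgf21, Lect2 and Angptl8 in TMM-scaled TPM against the share of TPM in 25 acute phase genes, both on log axes, with 1 point per library coloured by group and labelled by replicate. Inhbe lies higher at each higher share, from 14.3 to 56.9 TPM over the 6 A-C and M libraries, while the 3 C libraries lie off that line at shares of 2.26% to 2.95%.

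Genes of the pathways that are known to drive the members were counted from lists. Over all tested genes, limma called 16.9% in A-C versus C and 16.0% in M versus C, in either direction. Of the integrated stress response, 19 of 24 listed genes were tested. In A-C versus C, 3 rose (Atf5, Asns and Psat1) and 1 fell (Sesn2), with a list median of 0.04. Limma called 0 in M versus C, with a median of 0.27 and with 4 called higher when TPM was used as deposited (median 0.46). Of all 11086 tested genes, 2931 were called higher with that setting. Without M replicate 24 the M versus C calls of the list were 4 higher and 1 lower, and without A-C replicate 12 they were 2 higher. Atf5, a stress-induced transcription factor gene, rose from 178 ± 26.9 TPM in C to 898 ± 177 in A-C (limma log2 2.32, adjusted p 0.00429). Psat1, of serine synthesis, rose from 0.249 ± 0.0726 to 2.74 ± 1.29 TPM (log2 1.53, adjusted p 0.00807), and both calls held with each library left out. The Asns call was lost without 5 of the libraries in turn (up to 0.111), and the Sesn2 call with TPM as deposited and without 4 of them (up to 0.103). Atf4, the central factor, was at 81.1, 75.3 and 95.9 TPM in C, 58.1, 80.9 and 131 in group A-C and 57.9, 112 and 124 in group M. It was below every C library in A-C replicate 6 and M replicate 24. Its 3 highest libraries were A-C replicate 12 and M replicates 26 and 27, with no difference called between groups. Ddit3, which encodes CHOP, was at 8.14, 11.7 and 15.0 TPM in C, 7.33, 8.19 and 14.9 in group A-C and 8.54, 27.5 and 19.2 in group M. Unlike Atf4, Ddit3 in M replicate 24 lay within the C range. A relation of Atf4 or Ddit3 to the levels of the members was not tested.

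The list of PPAR alpha targets holds neither Fgf21 nor Angptl4, which are also known targets. Of its 27 tested genes, 8 rose and 1 fell in A-C versus C (median 0.54), and 9 rose and 1 fell in M versus C (median 0.62). The shares of all tested genes called, in either direction, were 16.9% and 16.0%. The number that rose in A-C ran from 4 (without C replicate 3 or A-C replicate 9) to 12 (without A-C replicate 12) with a library left out, and was 15 with TPM as deposited. For M it ran from 1 (without C replicate 3 or M replicate 27) to 12 (without A-C replicate 12), was 3 without C replicate 2 and 4 without C replicate 4 or M replicate 26, and was 13 with TPM as deposited. Cyp4a10, a fatty acid hydroxylase gene, rose from 76.1 ± 42.1 TPM in C to 589 ± 297 in A-C (limma log2 2.91, adjusted p 0.00807) and 604 ± 112 in M (log2 3.09, adjusted p 0.00869). Pdk4, which spares glucose oxidation, rose from 3.56 ± 1.14 to 22.8 ± 9.34 TPM in A-C (log2 2.35, adjusted p 0.00242). The gene that fell was Fabp1, which encodes the fatty acid binding protein of liver, from 26629 ± 6538 TPM in C to 5230 ± 2188 in A-C (log2 -2.41, adjusted p 0.00518). These A-C and Cyp4a10 calls held with each library left out. In M versus C, Pdk4 was also called higher and Fabp1 lower (limma adjusted p 0.0181 and 0.0152). Those M calls were lost without C replicate 3 or M replicate 26 or 27. That of Pdk4 was also lost without C replicate 4 (up to 0.0769). In the same comparisons the log2 difference of Fgf21 was 1.20 and -0.11 and that of Angptl4 was -0.05 and -0.69, none of them called.

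Of the lipogenic genes, which share insulin and carbohydrate control with Angptl8, all 19 listed were tested. In A-C versus C, 6 fell and 1 rose (median -1.03), and in M versus C 5 fell and 1 rose (median -0.56). The shares of all tested genes called, in either direction, were 16.9% and 16.0%. The number that fell in A-C was 2 without C replicate 3, and 4 to 7 without another library. For M it was 1 without C replicate 3, 2 without C replicate 2 or M replicate 26 or 27, and 4 to 6 without another library. Fasn, the fatty acid synthase gene, was at 185, 205 and 167 TPM in C, 49.8, 42.2 and 20.7 in group A-C and 21.0, 17.5 and 24.7 in group M. It fell in A-C (limma log2 -2.36, adjusted p 0.00353) and in M (log2 -3.09, adjusted p 0.00228), and both calls held with each library left out. Fasn was thus low in all 3 M libraries. Angptl8 was above every C library (up to 80.9 TPM) in M replicates 26 (133) and 27 (83.8), and below them in M replicate 24 (24.4). A relation of Angptl8 to Fasn or to the other lipogenic genes was not tested. The regulator genes Srebf1 and Mlxipl were called lower in A-C (limma adjusted p 0.0169 and 0.0245) but not in M versus C. The Srebf1 call was lost without C replicate 3 or A-C replicate 9, and the Mlxipl call without C replicate 2 or 3. Each other gene called lower in A-C was, like Fasn, also called lower in M. In M versus A-C, limma called 0 genes in each of these lists, as it did for the members, against 0.171% of all tested genes.

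Of the other liver-secreted hormones and hepatokines, 23 of 26 listed were tested. Limma called 4 higher in A-C versus C, where 16.9% of all tested genes were called in either direction. It called 2 higher and 3 lower in M versus C, against 16.0% of all tested genes. The medians of the list were 0.13 and 0.11, beside 0.03 and 0.05 over all genes. No gene of the list was called in A-C versus C without C replicate 3 or A-C replicate 9, nor in M versus C without C replicate 3 or M replicate 27. Selenop, the selenium carrier and hepatokine, rose from 1997 ± 406 TPM in C to 3666 ± 592 in A-C (limma log2 0.88, adjusted p 0.0258) and 4544 ± 609 in M (log2 1.20, adjusted p 0.0129). The A-C call was lost without C replicate 2 or 3 or A-C replicate 9 (up to 0.0915), and the M call without C replicate 3 or M replicate 27 (up to 0.0673). The remaining calls were Fgl1, Itih3 and Gdf2 higher in A-C, Fgl1 higher in M, and Hamp, Tsku and Igf1 lower in M, each lost without 5 or more of the 9 libraries in turn.

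As a description with no test, the genes most like each member over the 9 libraries were found by Pearson's r of log2(TPM + 1). They were Tmem125, Ddx39a and Ncoa5 for Fgf21 (r 0.96 to 0.97), Cdv3, Chchd4 and Dcaf12 for Gdf15 (0.97 to 0.98), and Zscan22, Flvcr1 and Golph3 for Inhbe (0.98 to 0.99). For Inhba they included Nfia and Ino80c (0.93 to 0.95), and for Angptl4 Baiap2l1, Ifit2 and Cdhr5 (0.96 to 0.97). For Angptl6 they were Col5a1, Pcgf3 and Il11ra1 (0.94 to 0.99), and for Angptl8 Zfp707, Plk2 and Tex30 (0.90 to 0.93). Lect2 was followed by Timm8a1, Thnsl2 and Klk1b4 (0.95 to 0.96), and Fetub by Cramp1, Fbrsl1 and Chd6 (0.97). No member was among the 3 nearest genes of another, and Angptl8 had the weakest nearest neighbours.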

How the data were processed

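Total RNA of mouse liver was extracted with Trizol and sequenced, per the labels' protocols. The genome build was mm10, per the submitters' processing notes; for the aligner, the counter and strand, nothing is given in the sources used here. TPM is the unit the authors deposited, and per the file headers each line holds a gene ID, symbol, exon coordinates and exon length. Of 32248 lines, 1 per gene ID was kept (31964). TPM times exon length moves in steps of equal size within a library, from which reads were recovered; 99.96% to 100% of values came within 0.1 of a whole number, and whether these are reads or pairs is not known. Intervals and floors from them cover counting error only.

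TPM was divided by TMM factors computed from those reads (trimming 30% of log ratios and 5% of levels), which ran from 0.867 to 0.902 for C, from 1.00 to 1.09 for A-C and from 1.07 to 1.10 for M. Genes with TPM of at least 1 in at least 3 of 9 libraries (11086) were tested with limma 3.58.1 (R 4.3.3), applied to log2(scaled TPM + 1), all 9 libraries in 1 fit with trend and robust settings, Benjamini-Hochberg adjusted at 0.05 within each comparison. In simulated data on 11086 genes with noise independent between genes, limma found, of 100 genes each, 63 changed by 1 log2 and 93 by 2 log2 in A-C versus C (4.88% of calls false). It found 68 and 91 in M versus A-C (7.02% false), and 69 and 93 in M versus C (4.14% false). Each gene had the same SD in all 3 groups, and the changed genes were drawn from all tested genes. The rates need not hold for Fgf21, Inhbe and Angptl8, whose pooled SD was 1.10, 0.75 and 0.74, against a median of 0.22.

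The members and gene lists were chosen with earlier results of these data known. Named genes were all members, up to 4 called genes of each list and comparison, partners of members, and the 3 genes most correlated with each member; not every gene that this allows is described, and the results for some are not reported here. Alternatives were TPM as deposited, median-of-ratios scaling, a pseudocount of 0.1, no filter, fits to the compared groups alone, no trend or robust settings, and leaving out each library. Permutation tests were run in Python 3.11.15. Sequences are from RefSeq (GRCm38.p6).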

Additional observations from a re-analysis of the deposited data

How the results depend on the processing

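Among alternative values of the members and comparisons, 382 kept direction and side of the threshold, 9 passed it newly and 14 changed sign. With TPM as deposited, Angptl4 in A-C versus C was 0.18, Fetub in M versus A-C 0.0088, Fgf21 in M versus C 0.13 and Angptl8 in M versus C 0.22. Leaving out each library in turn, the A-C versus C difference ran from -0.13 to 0.090 for Angptl4, from -0.058 to 0.47 for Angptl6 and from -0.024 to 0.94 for Inhbe. The M versus A-C difference ran from -0.26 to 0.72 for Inhbe. In M versus C the range was -0.67 to 0.63 for Fgf21, -0.56 to 0.64 for Angptl8 and -0.58 to 0.020 for Inhba. Angptl4 in A-C versus C changed sign when C replicate 2 (0.052) or A-C replicate 12 was left out, and Inhbe in M versus A-C when A-C replicate 6 or M replicate 26 (-0.053) was. Members called numbered 1 in A-C versus C and 1 in M versus C with only the compared groups, and 1 in M versus C without trend and robust settings. Leaving out 1 library gave 0 to 1 members in A-C versus C, 0 to 1 in M versus A-C and 0 to 2 in M versus C. Over all genes, leaving out 1 library gave 331 (C replicate 3) to 2193 (M replicate 24) calls in A-C versus C, 3 to 30 in M versus A-C and 191 (M replicate 27) to 2511 (M replicate 24) in M versus C. M versus A-C had 6 calls with no filter and 2 with only those groups, and M versus C had 3282 with TPM as deposited and 1089 with no filter. The cause was not tested. No paired analysis was possible because the groups share no replicate numbers. With 3 libraries a group, Fgf21, Inhbe and Angptl8 had intervals over 2 log2 wide.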
